A study of Homo sapiens with 15 samples.

Results

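The hypoxia and glycolysis genes were a list of 38 named genes, made up of 14 enzymes of glycolysis and 24 other genes of the hypoxia-inducible factor (HIF) response. They were found by symbol in the deposited tables, where 37 of the 38 stood among 16887 genes, and ANKRD37 was not analysed here. Of the 37, 34 reached 10 normalised counts in 5 or more libraries and were tested: all 14 enzymes and 20 of the 23 other genes. CA9, EGLN3 and PLOD2 did not pass this filter on low values, and their levels are given without a test. Messenger RNA had been sequenced from Mia PACA-2, an established human pancreatic cancer line grown in glucose-rich medium with serum, and the labels name no hypoxic treatment and no oxygen level. The 15 libraries were 5 of control cells, 5 of cells overexpressing cytidine deaminase (CDA), the enzyme that converts cytidine to uridine, and 5 of cells overexpressing CDA_E67Q, its form with a substitution at a glutamate of the active site. Each library carried a pool number from 1 to 5, given once in each group. What a pool was, which vector drove the transgenes and whether pools were separate cultures is not in the labels, so the p-values measure only how these libraries spread, and that spread may be technical.

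HIF is a transcription factor of an oxygen-regulated alpha subunit, encoded by HIF1A or EPAS1, and the stable partner ARNT. In oxygen, prolyl hydroxylases such as EGLN1 and EGLN3 mark the alpha subunit for destruction through VHL, so its activity is set largely at the protein and is not read from its transcript. At low oxygen the pair binds DNA at short sites, ACGTG among them. It induces glucose transporters, nearly every step of glycolysis, pyruvate dehydrogenase kinase, angiogenic factors and carbonic anhydrases. Pancreatic tumours are poorly oxygenated, and their cells take up much glucose and release lactate.

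Estimated depth was 21.5 to 30.6 M reads per library, with 12508 to 13090 genes detected. The CDA transcript was higher in the overexpressing library in each of 5 pools in both comparisons with control (log2 difference 4.71 and 5.09), with an adjusted p of 0.0676 and 0.0691. Libraries with the same pool number deviated from their group means together in all pairs but those of 1 library: Control 1 correlated at 0.011 with CDA 1 and at -0.060 with CDA_E67Q 1 across 11588 genes, and best with the pool 4 libraries (0.53 and 0.42), while Control 4 correlated at 0.47 with CDA 1 and at 0.34 with CDA 4. Counts of genes of the list that passed, and most differences from control named for its single genes, are therefore also given without pools 1 and 4. No such difference is given for the CDA transcript, for genes outside the list, or for the intervals of PKM, LDHA and GAPDH. The 3 libraries of pool 5 had 9 of the 34 tested genes of the list outside the range of the other 12, against 34.2% of all genes. They held 742.5 to 763 normalised counts of 8 endothelial markers together, mostly CDH5 and CLDN5, against 3.81 to 28.3 elsewhere, with KDR, TEK and ERG at 0. They held 2075 to 2297 of 6 immune markers, mostly CD68 and CD14, against 356 to 1761 elsewhere, with CD3E at 0. The 6 fibroblast markers, with DCN and LUM at 0, summed to 26450.2 to 29463 in pool 5 and to 7017 to 41768 elsewhere. Among 6 epithelial markers, EPCAM reached at most 3.50, CDH1 3.59 and KRT7 37.7 in any library, while KRT8, KRT18 and KRT19 stood at 1499 or more in all 15. The part of these markers and of pool number in the results below was not tested, except where a value without those libraries is given.

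Promoter letters were read from RefSeq for GRCh38.p14, over the 250 bases before each gene's start. A window was found for 34 of the 38 genes, and none for SLC2A3, BNIP3L, NDRG1 and VEGFA. The 5 letters ACGTG, or CACGT on the other strand, occurred in 20 of those 34 windows (58.8%) and in 9 of the 14 enzymes (64.3%), against 5935 of 27305 genes with a window (21.7%). The list was made of glycolytic and HIF-induced genes, and the background took every gene with a window, expressed or not. The difference in share is therefore a description. A match is only a run of letters and not a bound site, and overlapping matches on both strands are counted as 2. The stretches shown are from LDHA and PGK1, which were high in pool 2, from GPI, which was low there, from P4HA1, and from 3 genes with few or no reads, CA9, BNIP3 and PLOD2. Capitals mark the matches of ACGTG and CACGT alone, and no other letters were searched for. Each stretch is written 5′ to 3′ on the strand of its gene.
LDHA, chr11:18394363-18394502, plus strand: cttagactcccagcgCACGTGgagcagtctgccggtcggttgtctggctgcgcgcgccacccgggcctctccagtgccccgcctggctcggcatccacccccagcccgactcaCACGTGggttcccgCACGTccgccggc
PGK1, chrX:78104028-78104087, plus strand: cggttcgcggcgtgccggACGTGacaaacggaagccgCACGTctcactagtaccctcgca
GPI, chr19:34364802-34364861, plus strand: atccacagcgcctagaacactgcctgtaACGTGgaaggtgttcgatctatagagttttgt
P4HA1, chr10:73096917-73096976, minus strand: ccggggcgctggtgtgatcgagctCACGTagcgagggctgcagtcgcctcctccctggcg
CA9, chr9:35673868-35673927, plus strand: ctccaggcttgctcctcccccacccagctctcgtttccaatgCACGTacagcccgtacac
BNIP3, chr10:131982024-131982083, minus strand: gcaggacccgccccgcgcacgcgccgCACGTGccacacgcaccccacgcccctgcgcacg
PLOD2, chr3:146161305-146161404, minus strand: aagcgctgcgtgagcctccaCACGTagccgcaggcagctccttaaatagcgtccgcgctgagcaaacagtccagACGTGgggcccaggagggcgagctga
Distances are counted from the RefSeq start. Gene spans printed here are those of all GENCODE transcripts together, and 6 of the 7 stretches, all but that of BNIP3, overlap the span of their gene. LDHA held 5 matches, of which 4 are both strands of a pair of CACGTG palindromes at 184 and 86 bases before the start, and PGK1 held 2 at 202 and 183 bases. GPI, with lower transcripts in pool 2, held 1 match at 162 bases. The windows of CA9, BNIP3 and PLOD2 also held the letters, and these were among the lowest genes of the list.

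Levels of different genes were compared per kilobase of 1 annotated transcript each, so they depend on that choice, which need not be the form expressed. GAPDH, which oxidises glyceraldehyde 3-phosphate, was highest, at a median of 99710 normalised counts per kilobase over the 15 libraries (range 81175 to 123603). PKM, TPI1, ENO1 and ALDOA, the enzymes for pyruvate formation, triose isomerisation, enolase and aldolase, followed at medians of 28227, 27879, 27014 and 23032. Their ranges overlapped, so their order among themselves is not resolved. LDHA and PGAM1 stood at 13209 and 12043, GPI at 4858, PGK1 at 3660 and PFKL at 3270. The enzymes HK2, at 256, and ALDOC, at 34.3, were the lowest. Outside the enzymes, the lactate exporter SLC16A3 stood at 1846, HIF1A at 1110 and EPAS1 at 9.39. CA9, the pH-regulating carbonic anhydrase often used as a hypoxia marker, was listed at 0 in all 15 libraries, and EGLN3 did not exceed 5.45 normalised counts in any.

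**Figure D1:**
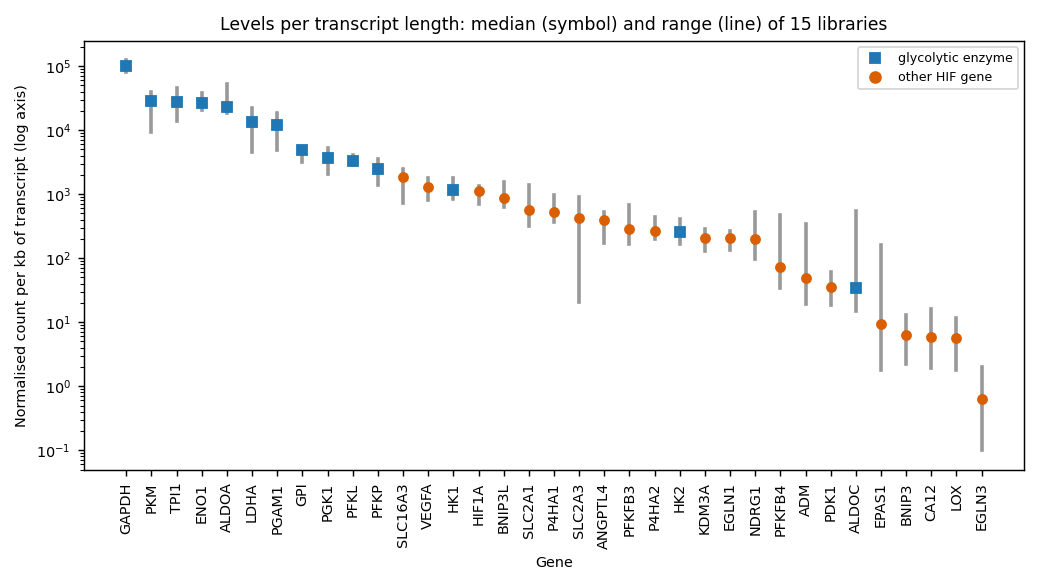
Level of 35 genes of the list in normalised counts per kilobase of annotated transcript (log axis), as the median (symbol) and range (line) of 15 libraries, with glycolytic enzymes as squares and other HIF genes as circles. GAPDH was highest at a median of 99710, and the long lines of SLC2A3, ALDOC and EPAS1 show genes whose level differed most between libraries. Genes with a median of 0 cannot be drawn on this axis.

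Paired isozymes kept their order in most libraries. HK1, the hexokinase of most tissues, was above the inducible HK2 in 15 of 15 libraries, by 2.31 to 7.12 times per kilobase. The liver-type phosphofructokinase PFKL exceeded the muscle-type PFKM 2.16 to 5.08 times, also in 15 of 15, and the platelet-type PFKP exceeded PFKL in only 2. ALDOA exceeded ALDOC, the brain-type aldolase, 129.6 to 2019 times outside pool 5 and 35.4 to 39.2 times in pool 5. SLC2A1 and SLC2A3, the glucose transporters GLUT1 and GLUT3, stood at a ratio of 0.47 to 3.32 in pools 1 to 4 and 11.4 to 15.3 in pool 5. HIF1A exceeded EPAS1 5.98 to 8.83 times in pool 2, 43.2 to 69.5 times in pool 5 and 62.6 to 668 times in pools 1, 3 and 4. LDHB, the other main lactate dehydrogenase subunit and not a gene of the list, was listed at 0 in 14 of 15 libraries and at 1.05 in CDA_E67Q 5.

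In CDA-overexpressing cells no gene of the list passed the test against control. The question was whether the enzyme altered glycolytic and HIF-induced transcripts, and each library was set against the control of the same pool number. By limma, 0 of 34 genes passed an adjusted p of 0.05, against 0% of 11341 genes, and the groups overlapped for all 34 genes (0.0529% of all genes did not overlap). At an unadjusted p under 0.05 there were 2 genes of the list, HK1 and EPAS1, and 201 genes in all. The difference was above 0 for 26 and below 0 for 8, with a median of 0.11 (0.082 over the 14 enzymes and 0.12 over the 20 other genes) against 0.011 over all genes. Leaving out 1 pool in turn moved the median of the enzymes from 0.0068 (without pool 4) to 0.13 (without pool 1), and that of the other genes from 0.12 to 0.18. HK1 was at 3061, 4140.0, 4725, 2991 and 4933 in control pools 1 to 5, at 3992, 6366, 5644, 3381 and 5039 in CDA and at 3821, 4237, 5246, 3705 and 5253 in CDA_E67Q. Each CDA library was above its control, by 0.031 to 0.62 on the log2 scale, and the ranges of both groups overlapped. The log2 difference was 0.29 (SE 0.11, 95% interval 0.033 to 0.55, unadjusted p = 0.0316, adjusted p = 1.00), and 0.30 (SE 0.16) without pools 1 and 4. For enzymes of the lower pathway, the 95% interval of the log2 difference was -0.22 to 0.39 for PKM, -0.24 to 0.48 for LDHA and -0.36 to 0.27 for GAPDH.

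In cells overexpressing CDA_E67Q no gene of the list passed either. By limma 0 of 34 genes did, against 0% of 11341 genes, and again no gene had groups that did not overlap (0.0794% of all genes). This comparison shared its control libraries with the previous one. At an unadjusted p under 0.05 there were 265 genes, 4 of them in the list: ADM, HK2, EPAS1 and ANGPTL4. The difference was above 0 for 24 of 34, with a median of 0.055 (0.056 over the enzymes and 0.043 over the other genes) against 0.0071 over all genes. Leaving out 1 pool in turn gave 0.035 (without pool 2) to 0.11 (without pool 1) over the enzymes and 0.018 (without pool 3) to 0.17 (without pool 2) over the other genes, and without pools 1 and 4 the latter was -0.032. ADM, which encodes the vasodilator peptide adrenomedullin, was at 39.4, 107, 46.3, 76.9 and 56.1 in control pools 1 to 5, at 53.4, 156, 484, 101 and 40.5 in CDA and at 93.4, 649.9, 425, 308 and 36.5 in CDA_E67Q. It was higher in CDA_E67Q in pools 1 to 4 and lower in pool 5, where the level of 36.5 was the lowest of the 15 libraries. The log2 difference was 1.67 (SE 0.49, 95% interval 0.57 to 2.77, unadjusted p = 0.00742, adjusted p = 0.998). Leaving out 1 pool in turn gave 1.30 to 2.24 for ADM, and leaving out pools 1 and 4 gave 1.72 (SE 0.61).

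HK2, a hexokinase that is induced by HIF, was at 1282, 959, 1356, 2076 and 1340.0 in control pools 1 to 5, at 1809, 1432, 1892, 1957 and 1313 in CDA and at 1872, 1480.3, 1976, 2384 and 1456 in CDA_E67Q. Every CDA_E67Q library was above its control, while for CDA this held in pools 1, 2 and 3. The log2 difference was 0.41 (SE 0.13, adjusted p = 0.998) for CDA_E67Q and 0.29 (SE 0.14, adjusted p = 1.00) for CDA. Without pools 1 and 4 these were 0.43 (SE 0.20) and 0.34 (SE 0.18). ANGPTL4, an inhibitor of lipoprotein lipase, was at 548, 529.8, 328, 705 and 801 in control pools 1 to 5, at 408, 640.3, 791, 947 and 739 in CDA and at 640.4, 1004, 773, 781 and 819 in CDA_E67Q. Each of the 5 CDA_E67Q libraries exceeded its control, by 0.039 to 1.23 on the log2 scale, and Control 3 was the lowest of all. The log2 difference without pools 1 and 4 was 0.73 (SE 0.27), against 0.51 (SE 0.21) with them. VEGFA, the main angiogenic factor, was at 2124, 1391 and 1696 in pool 1, 1356, 1140.5 and 1445 in pool 2, 2163, 969 and 1123 in pool 3, 1010.4, 1534 and 1573 in pool 4 and 1956, 1899.7 and 1796 in pool 5 in control, CDA and CDA_E67Q. It was lower with CDA in 4 of 5 pools, with Control 3 the highest and CDA 3 the lowest library, and a log2 difference of -0.29 (SE 0.23, adjusted p = 1.00), or -0.48 (SE 0.24) without pools 1 and 4.

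The 2 forms of the enzyme were then set against each other, a comparison that bears on catalysis. By limma 0 of 34 genes differed between CDA and CDA_E67Q (0% of 11588 genes), none at an unadjusted p under 0.05, at which 127 genes stood in all. No gene of the list had groups that did not overlap (0.0431% of all genes). CDA was above CDA_E67Q for 18 of 34, with a median of 0.028 (-0.023 over the enzymes and 0.079 over the other genes, and -0.0014 over all genes). Leaving out 1 pool in turn gave -0.072 to 0.029 over the enzymes and -0.081 (without pool 2) to 0.11 over the other genes. PGAM1, phosphoglycerate mutase, had the smallest p of the list, with a log2 difference of 0.20 (95% interval -0.058 to 0.46) and CDA above CDA_E67Q in 5 of 5 pools, by 0.75 in pool 2 and by at most 0.099 in the other pools. ADM differed by -0.82 (95% interval -1.91 to 0.26), and LDHA by 0.10 (95% interval -0.19 to 0.40). A missed threshold with intervals of this width does not show that the enzyme forms act alike.

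**Figure D2:**
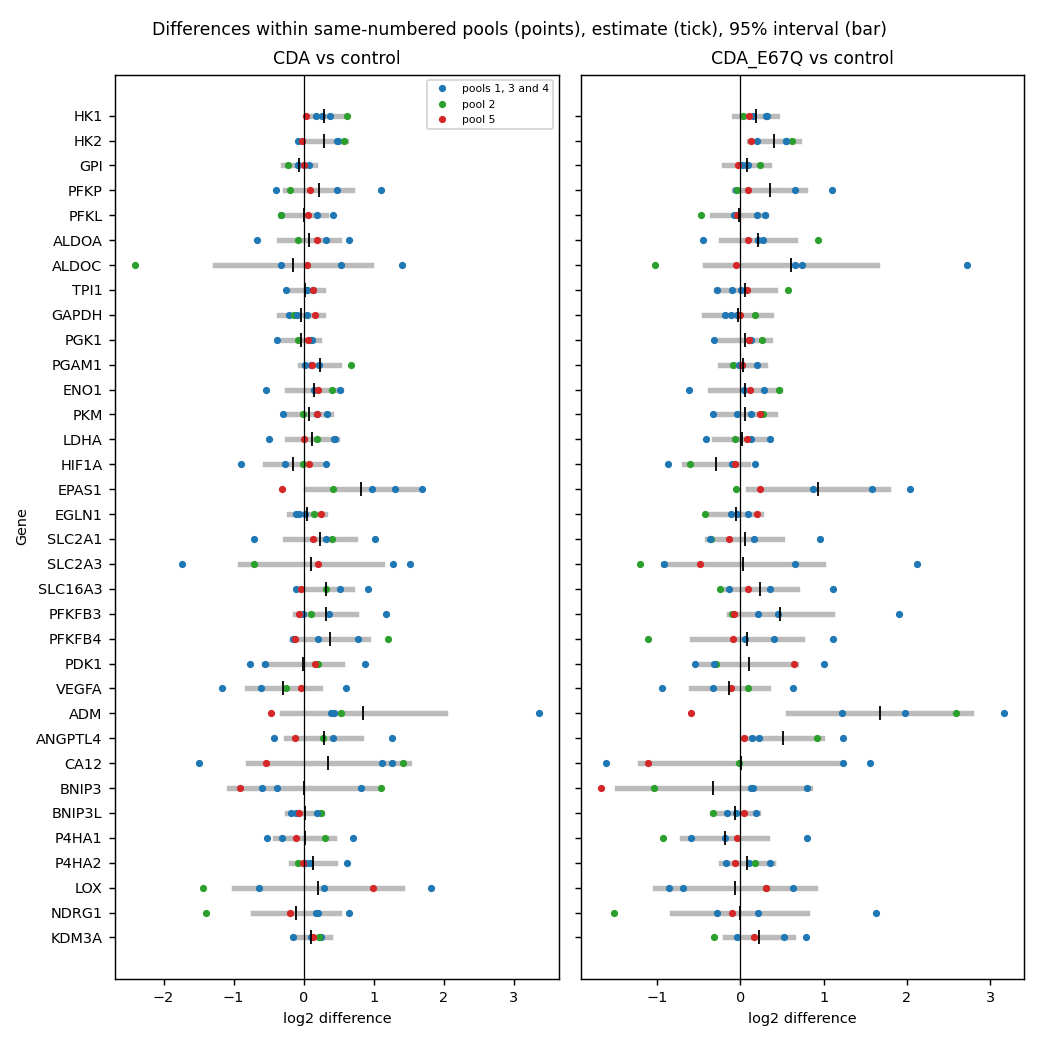
Log2 difference of each of 34 genes within same-numbered pools, CDA minus control (left) and CDA_E67Q minus control (right), with points for the 5 pools, a tick for the fitted estimate and a bar for its 95% interval. Pool 2 is green and pool 5 is red. ADM and EPAS1 have their estimates farthest above 0 on both sides, and their points for single pools lie on both sides of 0. Both panels share the control libraries.

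The other genes of the pathway, from 4 lists, did not pass in these comparisons either. They were 35 further glycolysis and lactate genes of which 18 were tested with CDA against control, 13 genes of pyruvate entry to mitochondria, 14 further HIF pathway components (12 tested) and 33 further HIF-induced genes (28 tested). In none of the 3 comparisons did a member of these lists pass the threshold. The smallest p in CDA against control was that of BHLHE41, a transcriptional repressor, with a log2 difference of -0.77 (SE 0.33). It was also the smallest in CDA against CDA_E67Q, at -0.97 (SE 0.28). In CDA_E67Q against control it was that of WSB1, a ubiquitin ligase adaptor, at -0.50 (SE 0.22).

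Pool number accounted for more of the variance of the genes of the list than group did. It took a median of 67.6% of the variance of the 34 genes (74.8% for enzymes, 60.4% for the others), and group 3.50%. Over all genes tested the medians were 61.0% and 4.35%. With no effect at all, 5 pool numbers would also take a larger share than 3 groups. Between the 5 pool numbers, 21 of 34 genes differed by limma, against a background of 45% of 11588 genes. They were 9 of 14 enzymes and 12 of 20 other genes, among them EPAS1, by which pool 2 had been singled out. The pass of EPAS1 is therefore a description, and the count of other genes includes it. Among enzymes the share of variance taken by pool number ran from 32.5% for PFKL to 96.3% for PKM. PFKP, PFKL, ALDOA, GAPDH and ENO1 did not pass, and among the others neither did HIF1A, VEGFA, ANGPTL4, CA12, BNIP3, P4HA1, LOX and KDM3A. Without pool 5, EPAS1 alone passed, which is a description since it served to single out pool 2, so 0 of the other 33 did, against 163 of 11395 genes (1.43%). Without pools 1 and 4, 16 of 34 genes passed, against 37.9% of all genes, and without the control libraries 20, against 36.3%. Both counts include EPAS1.

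**Figure D3:**
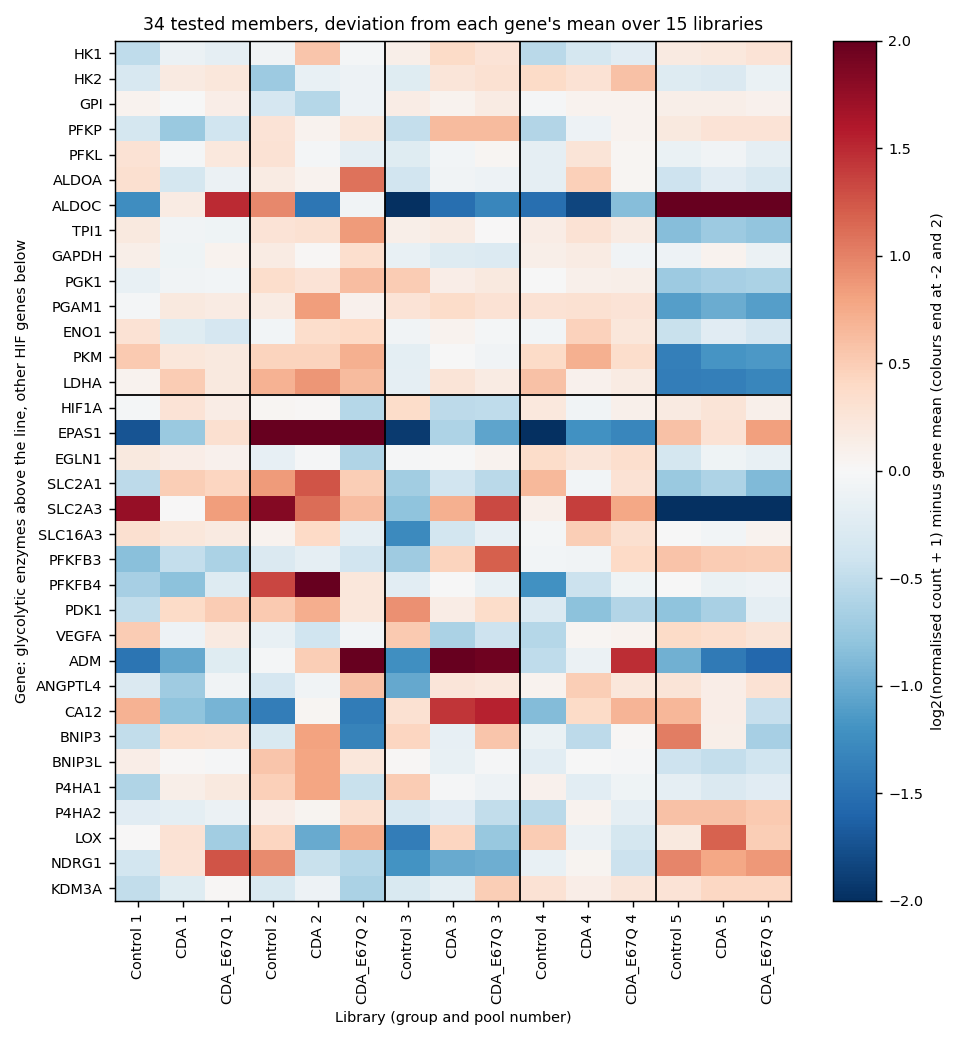
Deviation of 34 tested genes from their own mean over 15 libraries, as log2 of the normalised count plus 1, with libraries ordered by pool number and group and colours ending at -2 and 2. Enzymes stand above the line. The 3 libraries of pool 5 resemble each other, with LDHA, PKM, PGAM1 and SLC2A3 low and ALDOC high, and EPAS1 is high in the 3 libraries of pool 2.

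EPAS1, which encodes HIF-2 alpha (chromosome 2, positions 46293667 to 46386703, plus strand, GRCh38), was the reason pool 2 was singled out, so its level there is a description. It was at 22.0, 44.3 and 94.1 in pool 1, 622, 830.5 and 602 in pool 2, 19.1, 48.5 and 35.8 in pool 3, 9.22, 32.1 and 29.9 in pool 4 and 114, 91.9 and 133 in pool 5 in control, CDA and CDA_E67Q. All 3 libraries of pool 2 stood above every other library, and the 3 of pool 5 came next together with CDA_E67Q 1. The log2 difference of pool 2 from the mean of the other pools was 3.94, a 15.4-fold higher level. The 8 endothelial markers, a cell type rich in EPAS1, summed to 11.5 to 28.3 in pool 2 and to 3.81 to 22.0 in pools 1, 3 and 4, with CDH5, KDR, TEK and ERG at 0 in both. Fewer cells of a type and less RNA per cell cannot be told apart in such bulk libraries. Against control, EPAS1 was higher in 4 of 5 pools in both groups, with log2 differences of 0.82 (SE 0.34, unadjusted p = 0.0424) for CDA and 0.93 (SE 0.37, unadjusted p = 0.0330) for CDA_E67Q, and an adjusted p of 1.00 and 0.998. Without pools 1 and 4 these were 0.47 (SE 0.37) and 0.35 (SE 0.35). The 5 values for CDA were 0.98, 0.42, 1.30, 1.69 and -0.31 in pools 1 to 5, and for CDA_E67Q 2.04, -0.049, 0.87, 1.58 and 0.23. Pools 2 and 5, where EPAS1 was highest, had the smallest or opposite differences.

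HIF1A (chromosome 14, positions 61695513 to 61748259, plus strand) was at 3945, 4899 and 4469 in pool 1, 4165, 4127 and 2732 in pool 2, 5229, 2816 and 2860.0 in pool 3, 4675, 3872 and 4353 in pool 4 and 4574, 4840.3 and 4352 in pool 5 in control, CDA and CDA_E67Q. Its levels spanned 2732 to 5229 and those of pool 2 lay inside the range of the other pools or just below it. No comparison passed, and the log2 difference of pool 2 was -0.21 (SE 0.17, adjusted p = 0.406). EGLN1, the main HIF prolyl hydroxylase, was at 1673, 1598 and 1544 in pool 1, 1292, 1427 and 961 in pool 2, 1425, 1446 and 1522 in pool 3, 1871, 1728 and 1829 in pool 4 and 1144, 1365 and 1311 in pool 5 in control, CDA and CDA_E67Q. CDA_E67Q 2 was the lowest and Control 4 the highest library, with a pool 2 difference of -0.33 (SE 0.12, adjusted p = 0.0791). EGLN3, itself induced by HIF, stood at 0 to 5.45 in all libraries.

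Against the mean of the other pools, pool 2 held higher transcripts of 5 enzymes and 4 other genes and lower transcripts of 2 enzymes. These 11 of 33 genes, EPAS1 left aside, passed by limma against a background of 15.5% of 11588 genes (8.15% higher and 7.38% lower). The median difference was 0.26 over the 14 enzymes and 0.073 over 19 other genes, against 0.0068 over all genes. The median of the other genes was -0.072 without pool 3 and 0.26 without pool 5. LDHA, PFKFB4 and BNIP3L lay above and GPI below all other libraries, 4 of 33 genes against 3.32% of all genes. All 11 calls were lost without pool 5, in which 8 of the 9 higher genes passed as lower (all but PFKFB4). Then 0 of 33 passed, against 68 of 11395 genes (0.597%). In that fit 11 of the 33 stood at an unadjusted p under 0.05, and the share of all genes at that level was not counted. The signs of the 11 genes called with pool 5 stayed. Without CDA_E67Q 2, 6 genes passed (GPI, PGAM1, LDHA, SLC2A1, PFKFB4 and BNIP3L, with 461 of all genes), without the control libraries 6 (TPI1, PGK1, PKM, LDHA, SLC2A1 and BNIP3L, against 14.2% of all genes), and without pools 1 and 4, 12 (against 24.5%).

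LDHA (chromosome 11, positions 18394388 to 18408425, plus strand), the subunit that turns pyruvate into lactate, was at 29819, 40309 and 32532 in pool 1, 46099.8, 52751 and 44248 in pool 2, 25021, 34206 and 31888 in pool 3, 42524, 30191 and 31914 in pool 4 and 10971, 11066 and 11535 in pool 5 in control, CDA and CDA_E67Q. The pool 2 libraries were the 3 highest and the pool 5 libraries the 3 lowest of the 15. Pool 2 differed by 0.92 (SE 0.14, adjusted p = 0.00326) from the other pools, and by 0.54 (SE 0.17, adjusted p = 0.147) from pools 1, 3 and 4.

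PFKFB4, a bifunctional enzyme that sets fructose 2,6-bisphosphate, the activator of phosphofructokinase, was at 179, 160.3 and 238 in pool 1, 719, 1666 and 333 in pool 2, 247, 285 and 257 in pool 3, 123, 212 and 268 in pool 4 and 283, 260.1 and 265 in pool 5 in control, CDA and CDA_E67Q. Pool 2 was above all other libraries, but its own values spread from 333 to 1666. The difference was 1.71 (SE 0.35, adjusted p = 0.0103), and 1.79 (SE 0.38, adjusted p = 0.0665) without pool 5. PFKFB3, its relative that mainly raises this activator, was at 744, 959 and 864 in pool 1, 1098, 1185 and 1027 in pool 2, 811, 1828 and 3043 in pool 3, 1281, 1274 and 1757 in pool 4 and 1993, 1906 and 1884 in pool 5 in control, CDA and CDA_E67Q. CDA_E67Q 3 was the highest library, the pool 5 libraries lay close together, and the pool 2 difference was -0.35 (SE 0.24, adjusted p = 0.333). BNIP3L, a receptor that directs mitochondria to autophagy, was at 3504, 3262 and 3134 in pool 1, 4675, 5546 and 3737 in pool 2, 3265, 2871 and 3141 in pool 3, 2765, 3165 and 3155 in pool 4 and 2388, 2289 and 2437 in pool 5 in control, CDA and CDA_E67Q. Its difference in pool 2 was 0.65 (SE 0.12, adjusted p = 0.00634), and 0.55 (SE 0.14, adjusted p = 0.0944) without pool 5. Its relative BNIP3, a textbook HIF target, was at only 12.4, 22.7 and 22.3 in pool 1, 14.2, 31.7 and 6.43 in pool 2, 24.3, 15.8 and 26.6 in pool 3, 16.1, 12.1 and 18.05 in pool 4 and 37.2, 19.4 and 10.9 in pool 5 in control, CDA and CDA_E67Q. Its lowest library was CDA_E67Q 2 and its highest Control 5, with a pool 2 difference of -0.35 (SE 0.49, adjusted p = 0.648).

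The glucose transporters were also higher in pool 2. SLC2A1 was at 1499, 3032 and 2914 in pool 1, 3890.3, 5177 and 3046 in pool 2, 1327, 1654 and 1485 in pool 3, 3385, 2075 and 2626 in pool 4 and 1285, 1414 and 1164 in pool 5 in control, CDA and CDA_E67Q. Pool 2 held the 2 highest libraries, but CDA_E67Q 2 lay below Control 4. The difference was 1.09 (SE 0.21, adjusted p = 0.00853), and 0.91 (SE 0.24, adjusted p = 0.110) without pool 5. SLC2A3 was at 3393, 1019 and 1800.2 in pool 1, 3589.5, 2196 and 1556 in pool 2, 578, 1655 and 2522 in pool 3, 1087, 2629 and 1721 in pool 4 and 115, 133 and 81.3 in pool 5 in control, CDA and CDA_E67Q. Libraries of 1 pool number spread widely in pools 1 to 4, and pool 5 lay below all of them. The difference of 1.49 (SE 0.44, adjusted p = 0.0402) became 0.52 (SE 0.49, adjusted p = 0.592) without pool 5. The call for SLC2A3 was lost in 7 of 15 alternatives, among them the deposited values, equal totals and leaving out any of the 3 libraries of pool 2.

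Among enzymes of the upper pathway, GPI and HK2 passed as lower in pool 2, while HK1, PFKP and PFKL did not pass. GPI, which interconverts glucose and fructose 6-phosphate (chromosome 19, positions 34359480 to 34402413, plus strand), was at 20373, 19279 and 21325 in pool 1, 15295, 13102 and 17961 in pool 2, 21366, 20237 and 21596 in pool 3, 19126, 20269 and 20411 in pool 4 and 21006, 20999.6 and 20464 in pool 5 in control, CDA and CDA_E67Q. The pool 2 libraries were the 3 lowest of the 15, and all others lay between 19126 and 21596. The difference was -0.42 (SE 0.10, adjusted p = 0.0185), and -0.41 (SE 0.12, adjusted p = 0.134) without pool 5. HK2 differed by -0.42 (SE 0.12, adjusted p = 0.0388), and by -0.52 (SE 0.14, adjusted p = 0.106) without pool 5, with Control 2 at 959 the lowest library. The call for HK2 was lost in 7 of 15 alternatives, among them leaving out Control 2, pool 3 or pool 4.

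Of the enzymes after the splitting of fructose 1,6-bisphosphate, LDHA, PKM, PGK1, TPI1 and PGAM1 passed as higher in pool 2, and GAPDH and ENO1 did not pass. All but LDHA had libraries that overlapped those of other pools. PKM, pyruvate kinase, was at 93816, 76692 and 74922 in pool 1, 89286, 88913 and 107604 in pool 2, 57017, 65226 and 62190.2 in pool 3, 85401, 107409 and 83302 in pool 4 and 25478, 29100.5 and 29716 in pool 5 in control, CDA and CDA_E67Q. It differed by 0.67 (SE 0.13, adjusted p = 0.00907), and by 0.30 (SE 0.16, adjusted p = 0.335) without pool 5. PGK1, the first ATP-forming step, was at 14956, 15833 and 16045 in pool 1, 21130.4, 20069 and 25338 in pool 2, 23623, 18176 and 18957 in pool 3, 16506, 17888 and 18070.3 in pool 4 and 9989, 10424 and 10689 in pool 5 in control, CDA and CDA_E67Q. Control 3 lay above both Control 2 and CDA 2, and the pool 2 difference was 0.52 (SE 0.11, adjusted p = 0.0123), or 0.32 (SE 0.13, adjusted p = 0.237) without pool 5. TPI1 was at 35115, 29477 and 28980.2 in pool 1, 37148, 38272 and 55410.2 in pool 2, 33366, 34399.6 and 31142 in pool 3, 34318, 37697 and 34656 in pool 4 and 17061, 18681 and 17935 in pool 5 in control, CDA and CDA_E67Q. CDA_E67Q 2 was the highest library by far, and the difference of 0.59 (SE 0.13, adjusted p = 0.0144) became 0.37 (SE 0.16, adjusted p = 0.244) without pool 5. PGAM1 was at 18859, 22039 and 21632 in pool 1, 21646, 34426 and 20453 in pool 2, 23307, 25012 and 23544 in pool 3, 23503, 23927 and 23209 in pool 4 and 8949, 9682 and 9039 in pool 5 in control, CDA and CDA_E67Q. CDA 2 was the highest library while Control 2 and CDA_E67Q 2 lay inside the range of pools 1, 3 and 4, and the difference of 0.45 (SE 0.12, adjusted p = 0.0288) became 0.13 (SE 0.15, adjusted p = 0.667) without pool 5.

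**Figure D4:**
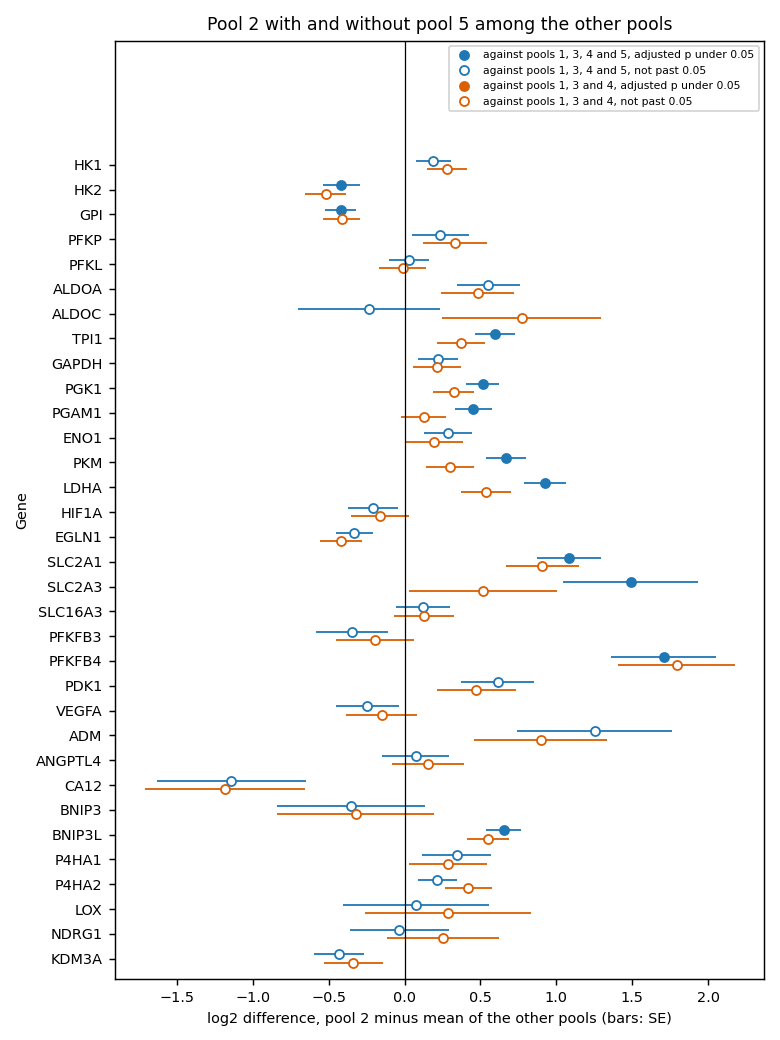
Log2 difference of 33 genes in pool 2 from the mean of the other pools, with pool 5 among them (blue) and without it (orange), bars giving the SE and filled symbols an adjusted p under 0.05. With pool 5, 11 genes pass, and without it none does. The symbols of SLC2A3, LDHA, PKM and ADM move most towards 0, and those of PFKFB4, GPI and HK2 move little or away from it. That of ALDOC crosses 0, from -0.23 (SE 0.47) with pool 5 to 0.77 (SE 0.52) without it, and passes in neither fit.

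Secreted factors, carbonic anhydrases, collagen-modifying enzymes and the remaining genes did not pass in pool 2. ADM reached 650 in CDA_E67Q 2, the highest of the 15 libraries, with 107 and 156 in Control 2 and CDA 2, and a difference of 1.25 (SE 0.51, adjusted p = 0.110). CA12 was at 56.5, 19.4 and 17.7 in pool 1, 12.7, 35.5 and 12.5 in pool 2, 43.0, 94.8 and 102 in pool 3, 18.5, 45.6 and 56.4 in pool 4 and 55.3, 37.9 and 24.9 in pool 5 in control, CDA and CDA_E67Q. It is a membrane carbonic anhydrase, and its pool 2 difference was -1.14 (SE 0.49, adjusted p = 0.127). P4HA1, a subunit of the collagen prolyl hydroxylase, was at 1047, 1709.7 and 1819 in pool 1, 2213, 2737 and 1163 in pool 2, 2246, 1559 and 1481 in pool 3, 1685, 1367 and 1489 in pool 4 and 1396, 1295 and 1349 in pool 5 in control, CDA and CDA_E67Q. Within pool 2 CDA 2 was the highest of all libraries and CDA_E67Q 2 was below the median. Among the collagen-modifying enzymes, P4HA1 had a difference of 0.34 (SE 0.23), P4HA2 of 0.22 (SE 0.13) and LOX of 0.073 (SE 0.48), with an adjusted p of 0.315, 0.264 and 0.931. PDK1, which blocks pyruvate dehydrogenase, was at 326, 599 and 655 in pool 1, 659.8, 759.6 and 538 in pool 2, 870.5, 512 and 595 in pool 3, 379, 259 and 305 in pool 4 and 262, 294 and 408 in pool 5 in control, CDA and CDA_E67Q. Pools 4 and 5 held 6 of its 7 lowest libraries, the other being Control 1, and Control 3 was the highest. In pool 2 PDK1 differed by 0.61 (SE 0.24, adjusted p = 0.0977), VEGFA by -0.24 (SE 0.21, adjusted p = 0.435), NDRG1, a stress-responsive HIF target, by -0.034 (SE 0.32, adjusted p = 0.951) and KDM3A, a histone demethylase, by -0.43 (SE 0.16, adjusted p = 0.0912).

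Among the 4 lists of other pathway genes, 12 genes passed in pool 2, and 0 passed without pool 5. Over all genes tested, 15.5% passed in pool 2, and 0.597% without pool 5. Of the other glycolysis and lactate genes 15.8% passed, of pyruvate entry 7.69%, of HIF pathway components 41.7% and of HIF-induced genes 10.3%. Of 29 other HIF-induced genes, 0 passed higher and 3 lower: TXNIP, which restrains glucose uptake, KDM4B, a histone demethylase, and EFNA1, an ephrin ligand, at -1.36 (SE 0.26, adjusted p = 0.00808), -0.57 (SE 0.12, adjusted p = 0.0116) and -0.72 (SE 0.23, adjusted p = 0.0488). Without pool 5 these became -0.57 (SE 0.29), -0.40 (SE 0.14) and -0.11 (SE 0.27), with an adjusted p of 0.327, 0.182 and 0.858. The median of the 29 genes was -0.18, against 0.0068 over all genes, and that of the 28 tested without pool 5 was -0.084. Of 19 other glycolysis and lactate genes, ENO2, the neuronal enolase, passed higher at 0.88 (SE 0.20, adjusted p = 0.0167), and PFKM and SLC2A4 passed lower at -0.59 (SE 0.15) and -1.41 (SE 0.43). Without pool 5 the 3 stood at 1.06, -0.49 and -0.67. Of 12 other HIF pathway components, 5 passed, with ELOC and RBX1, parts of the VHL ubiquitin ligase, higher by 0.60 and 0.47, and ARNT and the coactivators CREBBP and EP300 lower, at -0.83, -1.15 and -0.93. Without pool 5 these were 0.38, 0.20, -0.58, -1.05 and -0.88, in the same order, with an adjusted p of 0.0779 or more. In pool 2 ELOC was at 1706, 1576 and 2725 and RBX1 at 1300.4, 1121 and 1732 in control, CDA and CDA_E67Q. Pools 1, 3 and 4 spanned 1236 to 1745 for ELOC and 911 to 1427 for RBX1, so only CDA_E67Q 2 lay above them. ARNT, CREBBP and EP300 were lowest of all libraries in CDA_E67Q 2, at 573, 563 and 601. Fits without that library are not given for these genes. Of 13 genes of pyruvate entry, PDK3 passed, higher by 0.70, which became 0.50 without pool 5.

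Pool 5 was also compared with the other pools, a contrast chosen after the data were seen. By limma 16 of 34 genes passed, 5 higher and 11 lower, against a background of 48.6% of all genes (24.4% higher and 24.2% lower), so the share lay near the background. Groups did not overlap for 9 of 34, against 34.2% of all genes. Of 14 enzymes 6 passed lower and 1 higher, with a median of -0.34, and of 20 other genes 5 passed lower and 4 higher, with a median of 0.17. Leaving out Control 5 turned that second median to -0.13. Without pools 1 and 4, 14 of 34 genes passed, against 41.1% of all genes. The call was lost for ENO1, PFKFB3, PDK1, ADM, NDRG1 and KDM3A without CDA 5, which left 10 calls, for ENO1, PFKFB3, ADM, NDRG1 and KDM3A without CDA_E67Q 5, and for ENO1, PFKFB3, PDK1, NDRG1 and KDM3A without Control 5. The endothelial and immune marker sums given above moved with pool 5.

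TPI1, PGK1, PGAM1, ENO1, PKM and LDHA passed as lower in pool 5, and GAPDH did not pass. LDHA was at 10971, 11066 and 11535 there, against 25021 to 52751 in the other 12 libraries, a difference of -1.69 (SE 0.14, adjusted p = 3.83e-06) or a 3.22-fold lower level. PKM was at 25478, 29100.5 and 29716, against 57017 to 107604, a difference of -1.53 (SE 0.13, adjusted p = 4.25e-06). PGAM1 was at 8949, 9682 and 9039, against 18859 to 34426, with -1.33 (SE 0.12, adjusted p = 6.09e-06). None of these ranges overlapped, and the same held for TPI1 at -0.98 (SE 0.13, adjusted p = 8.40e-05) and PGK1 at -0.85 (SE 0.11, adjusted p = 6.54e-05). ENO1, enolase, was at 80573, 55538 and 52355 in pool 1, 63095, 83831 and 87149 in pool 2, 62516, 69399.6 and 64249 in pool 3, 63348, 90470.1 and 77299 in pool 4 and 48600.2, 56105 and 52202 in pool 5 in control, CDA and CDA_E67Q. The pool 5 libraries overlapped those of pool 1, and the difference was -0.42 (SE 0.16, adjusted p = 0.0445), a call lost in 8 of 15 alternatives. GAPDH, between these steps, differed by -0.063 (SE 0.13, adjusted p = 0.718).

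ALDOC was the 1 enzyme that passed as higher in pool 5, while HK1, PFKP and GPI had differences above 0 that did not pass. ALDOC (chromosome 17, positions 28573115 to 28577264, minus strand) was at 52.0, 139 and 348 in pool 1, 241, 44.7 and 118 in pool 2, 29.5, 43.0 and 49.6 in pool 3, 42.7, 33.8 and 68.0 in pool 4 and 1046, 1078 and 1004 in pool 5 in control, CDA and CDA_E67Q. Every library of pool 5 stood at 1004 or more and every other at 348 or less, a difference of 3.83 (SE 0.47, adjusted p = 4.31e-05) or a 14.2-fold higher level. ALDOA, far more abundant per kilobase, differed by -0.40 (SE 0.21, adjusted p = 0.131). SLC2A3 (chromosome 12, positions 7919230 to 7936275, minus strand) had the largest downward difference of the 34 genes, from 578 to 3590 elsewhere to 115, 133 and 81.3 in pool 5, a difference of -4.02 (SE 0.44, adjusted p = 2.10e-05) or a 16.3-fold lower level. SLC2A1 differed by -0.94 (SE 0.21, adjusted p = 0.00301) and SLC16A3 by 0.0027 (SE 0.18, adjusted p = 0.991). SLC16A3 was at 10654, 9904 and 9673 in pool 1, 8933, 11143 and 7529 in pool 2, 3501, 6617 and 7575 in pool 3, 8280.3, 11917 and 10603 in pool 4 and 8433, 8189 and 8915 in pool 5 in control, CDA and CDA_E67Q. Only Control 3 stood apart for this exporter, below all others.

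Other HIF genes went both ways in pool 5. ADM, PDK1 and BNIP3L were lower, at -1.65 (SE 0.51, adjusted p = 0.0181), -0.68 (SE 0.24, adjusted p = 0.0335) and -0.54 (SE 0.12, adjusted p = 0.00232). P4HA2, NDRG1, PFKFB3 and KDM3A were higher, at 0.71 (SE 0.13, adjusted p = 0.000747), 1.09 (SE 0.32, adjusted p = 0.0145), 0.66 (SE 0.24, adjusted p = 0.0365) and 0.46 (SE 0.16, adjusted p = 0.0357). P4HA2, another collagen prolyl hydroxylase subunit, was at 845, 864 and 905 in pool 1, 1084, 1024 and 1229 in pool 2, 789, 841 and 698 in pool 3, 674, 1038 and 865 in pool 4 and 1485, 1481 and 1411 in pool 5 in control, CDA and CDA_E67Q. Its pool 5 libraries lay above all others. NDRG1 was at 643, 1004 and 1999.6 in pool 1, 1601, 609 and 560.2 in pool 2, 364, 412 and 422 in pool 3, 751, 868 and 620.2 in pool 4 and 1638, 1429.7 and 1521 in pool 5 in control, CDA and CDA_E67Q. Its pool 5 libraries were high, but CDA_E67Q 1 was higher, and pool 3 was lowest. KDM3A was at 709, 844 and 1018 in pool 1, 807, 939 and 648 in pool 2, 815, 875 and 1406 in pool 3, 1219, 1099 and 1191 in pool 4 and 1208, 1331 and 1340.4 in pool 5 in control, CDA and CDA_E67Q. Pools 4 and 5 held its high libraries together with CDA_E67Q 3. PLOD2, a collagen lysyl hydroxylase, was at 18.7, 33.0 and 39.2 in pool 5, at 2.99 in CDA 1 and listed at 0 in the other 11 libraries. EPAS1 differed by 0.70 (SE 0.34, adjusted p = 0.105), and by -0.42 (SE 0.30, adjusted p = 0.291) without pools 1 and 4. Both values set pool 5 against pools that include pool 2, chosen for its high EPAS1. Leaving out pool 2 drops the libraries chosen by EPAS1, so no test of it is given there. EPAS1 stood at 91.9 to 133 in pool 5 and at 9.22 to 94.1 in pools 1, 3 and 4, and these ranges overlapped. VEGFA differed by 0.41 (SE 0.21, adjusted p = 0.117).

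**Figure D5:**
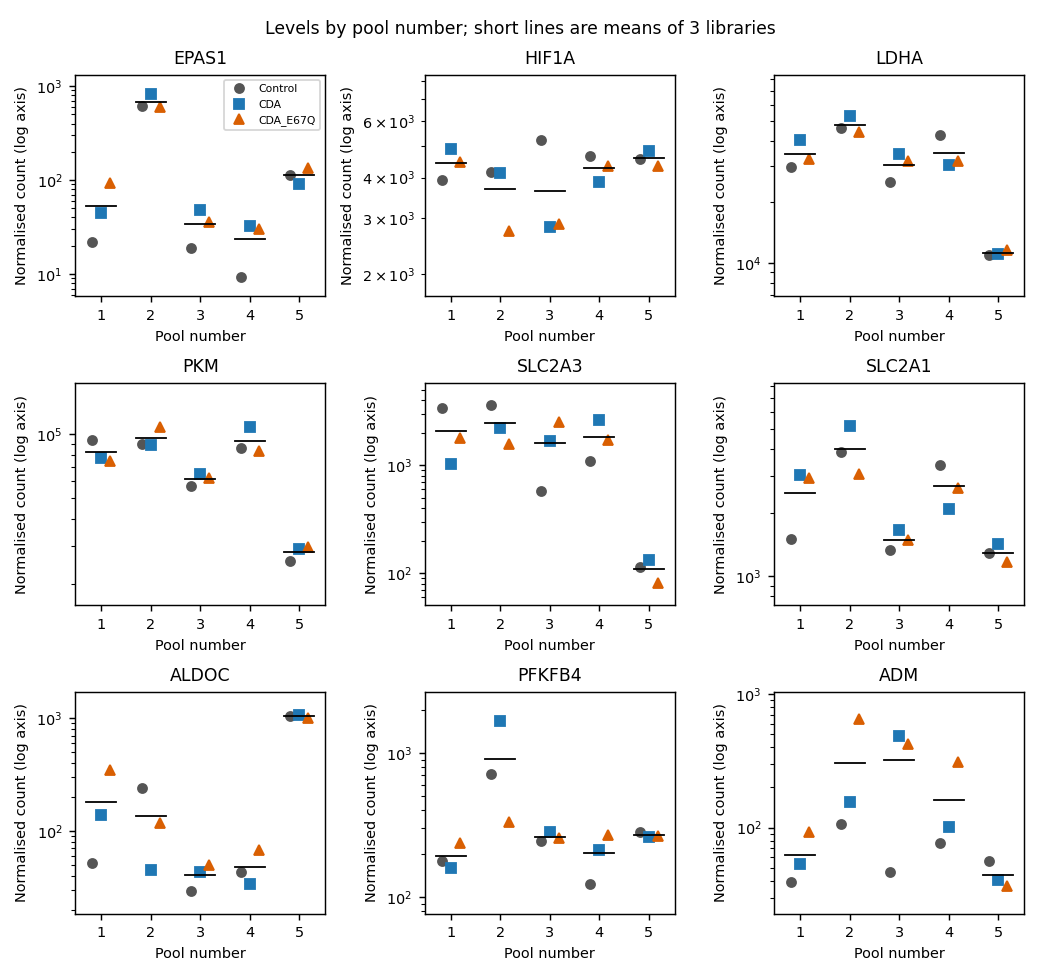
Normalised counts (log axis) of 9 genes in each library by pool number, with a short line at the mean of 3 libraries and symbols for control, CDA and CDA_E67Q. EPAS1 and PFKFB4 are highest in pool 2, where LDHA lies at 44248 to 52751. LDHA, PKM and SLC2A3 are lowest and ALDOC is highest in pool 5, whose 3 libraries lie close together.

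In pool 5, 48.6% of all genes passed, 24.4% higher and 24.2% lower. The other pathway lists had shares on both sides of this. They were 41.4% of HIF-induced genes, 52.6% of other glycolysis and lactate genes, 53.8% of pyruvate entry and 41.7% of HIF pathway components. Of 29 HIF-induced genes 12 passed, 11 higher and 1 lower, with a median of 0.32 against 0.018 over all genes. TXNIP was at 26399, 26319 and 28719 in pool 5 and at 1273 to 4934 elsewhere, a difference of 3.32 (SE 0.26, adjusted p = 2.79e-06), and EFNA1 and KDM4B differed by 2.48 (SE 0.23) and 0.79 (SE 0.12). The gene that passed lower was MIF, a cytokine. Of 19 other glycolysis and lactate genes 10 passed, 7 of them higher, led by LDHD, a D-lactate dehydrogenase, at 2.58 (SE 0.31) and the insulin-regulated transporter SLC2A4 at 3.11 (SE 0.43), and HKDC1, a hexokinase homologue, was higher by 3.86 (SE 0.82). Of 13 genes of pyruvate entry 7 passed, with PDHX, PDHB, DLAT and PDK3 lower and PDK2, PDK4 and PDPR higher. Of 12 HIF pathway components 5 passed, with ARNT and CREBBP higher by 1.14 and 0.67 and RBX1, ELOC and EGLN2 lower, at -1.12, -1.001 and -0.56.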

How the data were processed

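Messenger RNA of 15 Mia PACA-2 libraries was sequenced, and per the submitters' processing notes the tools were Salmon, Trimmomatic, FastQC and bcl2fastq and the genome build GRCh38, without versions. The authors deposited 2 tables of log2 values, 1 with control and CDA and 1 with control and CDA_E67Q. Every gene with no read holds the floor of its table, 6.65 or 6.17, and the shape of the values is that of a variance-stabilising transform. For the step from Salmon to these values, and for strand, the sources used here give nothing. The transform compresses low genes. It was therefore undone: the difference of the value and the floor, each as a power of 2, was squared and divided by the value as a power of 2, which gives a normalised count. The controls stand in both tables and put 13917 genes of 15 libraries on 1 scale (largest residual 3.06e-08 log2), and 2970 genes without a read in a control were left off it. Only 27.5% of values under 12, on average, lay within 0.05 of a whole read. No count test was therefore run, and depth is only an estimate.

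The log2 of the normalised count plus 1, a scale that understates changes of low genes, was fitted with limma 3.58.1 (R 4.3.3, trended prior variance). A gene needed 10 normalised counts in 5 or more libraries, with Benjamini-Hochberg adjustment over all of them, 2-sided, at 0.05. CDA and CDA_E67Q were each compared with control within their own table, with pool number as a block, and with each other and between pools on the common scale of 15 libraries. The contrast of pool 2 took the mean of the other 4 pool numbers, and that of pool 5 was added after the data were seen. The fits were also run on simulated counts with the same dispersion for every gene and no library like Control 1. The power of the fits on the libraries here was not measured. Alternatives changed the scaling, filter, pseudocount, block and libraries. Pool numbers come from the titles. Transcript lengths and positions are from GENCODE 29 on GRCh38, taking the longest of the best-ranked principal transcripts, and promoters are from RefSeq. Plots were drawn with matplotlib 3.10.9 and tables made with pandas 2.3.3 and numpy 2.4.6 under Python 3.11.15.

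The genes, the lists and the contrast of pool 2 were chosen with earlier results of these data known. All listed genes are named, with a value in every library where they passed in a comparison, are EPAS1 or HIF1A, or are among the largest differences. From 4 further pathway lists up to 3 genes with the smallest p are named, and any further name was chosen after its values were seen.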

Additional observations from a re-analysis of the deposited data

Results flagged for a closer look

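In each group of 5 libraries, a library was looked for whose gap to its nearest neighbour took more than 0.71 of the group's range, Dixon's 95% critical value. Over 105 groups of 35 genes this picked 17 values in 11 genes, where chance picks about 1 group in 20. Of the 17, 8 lay in pool 2, 7 in pool 5 and 2 elsewhere, and the cause of these patterns was not tested. The 3 values of EPAS1 in pool 2 are a description, since pool 2 was singled out by its level. Those of PLOD2 in pool 5 follow from its having almost no reads elsewhere, and it failed the filter on low values. The total therefore cannot be set against the chance rate, and the tally by pool supports nothing about either pool.

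In pool 2 the high values were those of EPAS1, the HIF-2 alpha subunit, at 622 in the control, 830.5 in CDA and 602 in CDA_E67Q, of PFKFB4, the phosphofructokinase regulator, at 719 in the control and 1666 in CDA, of P4HA1, the collagen prolyl hydroxylase, at 2737 in CDA, and of ALDOA, aldolase, at 84805 in CDA_E67Q. GPI, the phosphoglucose isomerase, was the low one, at 13102 in CDA.

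In pool 5 the high values were those of ALDOC, the brain-type aldolase, at 1046 in the control and 1078 in CDA, and of PLOD2, the collagen lysyl hydroxylase, at 18.7 in the control, 33.0 in CDA and 39.2 in CDA_E67Q. The low ones were TPI1, triose phosphate isomerase, at 17061 in the control, and PGAM1, phosphoglycerate mutase, at 9039 in CDA_E67Q.

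Outside these pools, PFKL, the liver-type phosphofructokinase, was high at 11642 in CDA 4, and ADM, adrenomedullin, at 484 in CDA 3.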

How the results depend on the processing

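No gene of the list passed in CDA against control, CDA_E67Q against control or CDA against CDA_E67Q under any of the 14, 14 and 13 alternatives run. The count over all genes, 0 in each, became 1, the CDA gene itself, in both comparisons with control in 1 fit of all 15 libraries with the block, on the deposited values and with a pseudocount of 5, and with CDA_E67Q also without pools 1 and 4. With no replicate block, 0 genes passed in each of the 3 comparisons. The pairing by number was not seen for Control 1, while deviations in every pair without it correlated at 0.32 to 0.89. Leaving out 1 pool in turn gave 0 genes in all 3 comparisons. Between pools it gave 1 to 21 genes of the list and 163 to 5660 of all genes, the lowest without pool 5. These counts include EPAS1, which was the 1 gene of the list that passed without pool 5. For pool 2, leaving out 1 library or pool gave 0 to 12 genes of the list, 68 to 2161 of all genes, enzyme medians of 0.26 to 0.34 and medians of the other genes of -0.07 to 0.26. Without the control libraries the enzyme median was 0.34 with 6 genes of the list called, without pools 1 and 4 it was 0.36 with 2789 of all genes called, and with equal totals it was 0.19. For pool 5, leaving out 1 library or pool gave 10 to 17 genes of the list. The count of 17, without pool 2, includes EPAS1, which is there a description. The enzyme medians were -0.40 to -0.27 and the medians of the other genes -0.13 to 0.29. Without the control libraries these were -0.40 and -0.13, and without pools 1 and 4 the enzyme median was -0.28. No scaling moved the median of all genes by over 0.1. For CA9, EGLN3 and PLOD2, which failed the filter on low values, depth limits what can be seen, and depth is only estimated.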
